A study of Mus musculus with 12 samples.

Results

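Primary mouse hepatocytes given oleic acid were compared with and without benzbromarone, across all genes. Benzbromarone (BBR) is a urate-lowering drug. Oleic acid (OA) is a fatty acid that hepatocytes take up and store as triglyceride, and it was present in both groups. The members were the 3 libraries titled BBROA (OA with BBR, here BBR+OA) and the 3 titled ConOA (OA alone, here OA), 6 of the 12 libraries of the series. The other 6 were control cells and cells given BBR without OA, and are used below only to ask whether an effect of BBR differed with OA. Of 22471 features in the files, 12278 had enough counts in these 6 libraries to be tested. Per the methods of the study, the hepatocytes came from male C57BL/6J mice, a wild-type strain, aged 6 weeks, and were cultured, and the groups shared this origin. All libraries of a treated group came from 1 dose and 1 time of exposure. The labels give the tissue as liver, and the text of the series calls the replicates biological, but neither says whether they came from separate mice or from wells of 1 preparation, so that p-values measure the spread between these libraries.

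Hepatocytes oxidise fatty acids in mitochondria and in peroxisomes, turn part of the acetyl-CoA into ketone bodies, and store what is not oxidised in lipid droplets. Many genes of these steps are targets of the peroxisome proliferator-activated receptors (PPARs), nuclear receptors that bind fatty acids and act with the retinoid X receptor. Cholesterol synthesis is governed separately, by the SREBP transcription factors, which respond to the sterol content of the cell.

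Total counts ranged from 16917054 to 19926541 in the 6 libraries, and 1 count was worth 0.0502 to 0.0591 CPM (counts scaled to the size of the library, here with TMM factors). Group values below are given per library or as the mean ± SD of 3 libraries. A count of 0 leaves room for up to 3 counts, here 0.151 to 0.177 CPM, a limit that covers counting error only. Mitochondrially encoded genes took 5.63 to 6.59% of counts. Hepatocyte markers, albumin among them, summed to 41494 to 42837 CPM in OA and to 42763 to 44600 CPM in BBR+OA, and 1 of the 10 tested (Fgb) was called. Markers of other liver cells were far lower. Kupffer cell markers summed to 116 to 128 CPM in OA and 122 to 128 CPM in BBR+OA, endothelial markers to 66.3 to 77.9 and 73.0 to 77.7 CPM, stellate cell markers to 26.5 to 31.4 and 24.7 to 27.6 CPM, and cholangiocyte markers, which are mostly Spp1, to 241 to 270 and 198 to 238 CPM. No tested member of these 4 lists was called, and the sums overlapped between groups for Kupffer, endothelial and stellate markers but not for cholangiocyte markers. Lymphocyte and neutrophil markers reached 1.95 CPM at most, with Cd3e, Cd79a and Nkg7 at 0 in all 6 libraries. In bulk RNA, fewer cells of a type and less RNA per cell cannot be told apart.

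To find which genes BBR altered in the presence of OA, each gene was tested with the quasi-likelihood F test of edgeR. At an adjusted p under 0.05, 563 genes were called, which is 4.59% of the 12278 tested. Of these, 240 (1.95%) were higher in BBR+OA and 323 (2.63%) were lower. Most differences were small: the median size of a called difference was 0.334 on the log2 scale, 419 of the 563 were under 0.5, and 31 (0.252% of genes tested) reached 2-fold, 15 higher and 16 lower. The number depended on single libraries. It was 216 without BBR+OA replicate 3, 230 without BBR+OA replicate 2, 249 without replicate 2 of OA and 373 without replicate 1 of BBR+OA, and 162 genes (90 higher, 72 lower) were called in all of the 6 fits that left out 1 library as well as in the fit of all 6. Lower genes did not outnumber higher ones without OA replicate 2 (131 higher, 118 lower) or without BBR+OA replicate 3 (109 and 107). The larger differences named below belong to these 162 unless a lost call is given. Counts of called list members below are to be read beside the shares of all genes, 4.59% called, 1.95% higher and 2.63% lower.

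**Figure D1:**
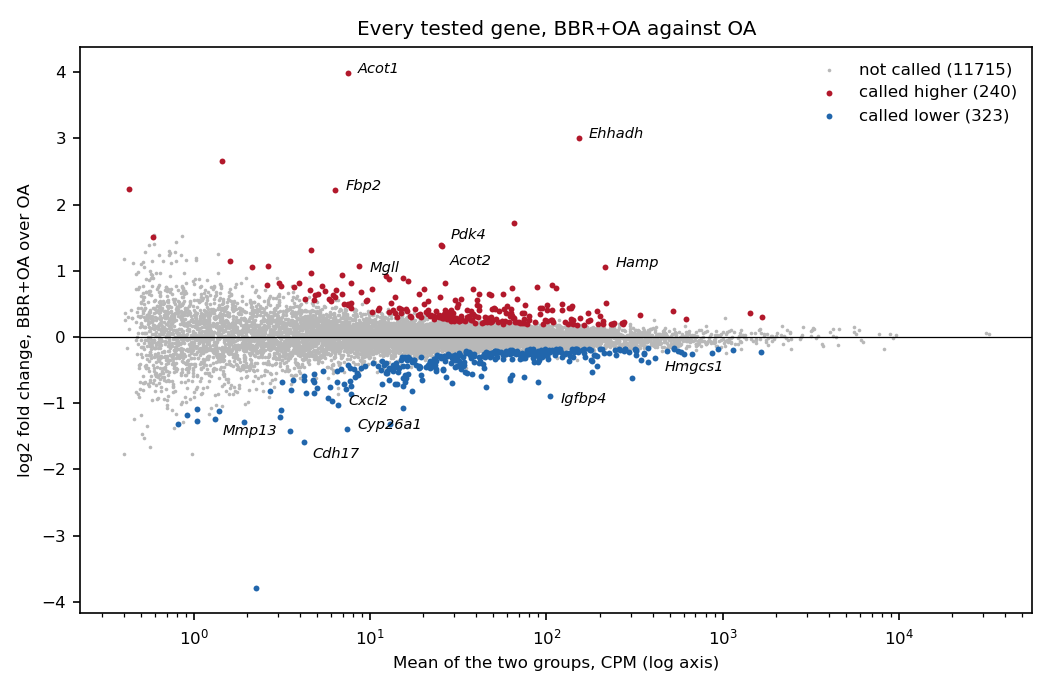
Each point is 1 of the 12278 genes tested: the horizontal axis is the mean CPM of the 2 groups (log axis) and the vertical axis the log2 fold change of BBR+OA over OA, with 240 genes called higher in red and 323 called lower in blue. Acot1 and Ehhadh lie above all other genes, and most called genes lie within 0.5 of 0. The lowest blue point is Gm20388, a gene of few counts (4.22 ± 3.66 CPM with OA alone and 0.297 ± 0.514 CPM with BBR) that is not among the 162 and is not described further.

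Peroxisomal beta-oxidation shortens very long chain and branched fatty acids. Of its 23 tested genes, 15 rose and none fell, with a median log2 fold change of 0.28, against a median of -0.000312 over all 12278 genes, of which 1.95% rose. Ehhadh, the bifunctional enzyme that hydrates and then oxidises the enoyl-CoA, was counted at 34.3, 32.2 and 34.7 CPM with OA alone and 288, 278 and 245 CPM with BBR (log2 fold change 3.00 ± 0.067 SE, edgeR adjusted p = 1.05e-12; gene at chr16:21761287-21787807, minus strand, GRCm38). The 3 BBR+OA libraries lay far above all 3 OA libraries. Acaa1b, a thiolase that splits off acetyl-CoA in the last step, was at 12.6, 12.1 and 10.7 CPM with OA alone and 21.1, 20.7 and 21.5 CPM with BBR (log2 fold change 0.84 ± 0.083 SE, edgeR adjusted p = 3.85e-05). Its close relative Acaa1a rose less, from 58.6 to 71.1 CPM (log2 fold change 0.28 ± 0.056 SE, edgeR adjusted p = 0.0109; call lost without OA replicate 2 (0.23) or without BBR+OA replicate 3 (0.27)), and reads that fit both of these near-identical genes may be split between them.

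Auxiliary enzymes of the peroxisome rose together with this core. Ech1 and Eci2, isomerases that prepare unsaturated acyl chains such as oleate for oxidation, had log2 fold changes of 0.74 (45.0, 46.9 and 51.0 CPM with OA alone and 76.2, 78.2 and 84.4 CPM with BBR; edgeR adjusted p = 7.01e-06) and 0.63 (37.2, 37.4 and 39.9 CPM with OA alone and 57.7, 59.8 and 60.2 CPM with BBR; edgeR adjusted p = 1.49e-05). Slc27a2, a very long chain acyl-CoA synthetase, rose by 0.82 (20.6, 17.1 and 19.7 CPM with OA alone and 36.9, 30.9 and 33.5 CPM with BBR; edgeR adjusted p = 5.85e-05). Abcd3, a transporter that brings acyl-CoA into the organelle, rose from 92.2 to 122 CPM (log2 fold change 0.41 ± 0.047 SE, edgeR adjusted p = 0.000176), and Pex11a, which promotes peroxisome division, from 14.0 to 18.3 CPM (log2 fold change 0.39 ± 0.084 SE, edgeR adjusted p = 0.017; call lost without OA replicate 2 (0.34) or without BBR+OA replicate 1, 2 or 3 (0.37 to 0.40)). Further called members were Acot4 and Decr2, with log2 fold changes of 0.65 and 0.33, and a group whose calls rested on single libraries. Hsd17b4 (0.28) lost its call without OA replicate 2 (0.23) or without BBR+OA replicate 2 (0.27), and Crat (0.27) without OA replicate 2 (0.26) or without BBR+OA replicate 1, 2 or 3 (0.26 to 0.28). Nudt7 (0.35) lost it without OA replicate 1 or 2 (0.27 to 0.33) or without BBR+OA replicate 2 or 3 (0.29 to 0.36), and Scp2 (0.22) without OA replicate 1 or 2 (0.18 to 0.20) or without BBR+OA replicate 2 or 3 (0.20 to 0.21) and with upper quartile scaling. Leaving out single libraries gave 9 (without OA replicate 2), 10 (without BBR+OA replicate 2 or replicate 3) to 16 called members, none of them lower.

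Mitochondrial beta-oxidation begins with the carnitine shuttle. Of the 22 tested genes of shuttle and spiral, 15 rose and none fell, with a median log2 fold change of 0.43, the largest median of the 33 pathway lists. Cpt1a, the carnitine palmitoyltransferase that limits entry of fatty acids, was at 85.6, 79.1 and 72.4 CPM with OA alone and 136, 141 and 132 CPM with BBR (log2 fold change 0.79 ± 0.059 SE, edgeR adjusted p = 2.58e-06). Its partners rose less: Cpt2 from 49.8 to 69.2 CPM (log2 fold change 0.47, edgeR adjusted p = 0.00055) and the translocase Slc25a20 from 24.6 to 30.4 CPM (0.30, adjusted p = 0.0148; call lost without BBR+OA replicate 1, 2 or 3 (0.28 to 0.32)). Hadha and Hadhb, the 2 subunits of the trifunctional protein, stood at 175, 182 and 177 CPM with OA alone and 251, 269.5 and 246 CPM with BBR, and at 85.0, 80.4 and 85.5 CPM with OA alone and 114, 117 and 120.2 CPM with BBR, with log2 fold changes of 0.52 and 0.49 (edgeR adjusted p = 2.44e-05 and 3.96e-05). Both subunits therefore rose by nearly the same factor. Decr1, the reductase needed for unsaturated chains, rose by 0.73 on the log2 scale (30.6, 25.4 and 29.9 CPM with OA alone and 47.4, 46.8 and 48.3 CPM with BBR).

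Among the acyl-CoA dehydrogenases, those for longer chains were called and those for shorter chains were not, a difference that was not itself tested. Acadl (long chain) rose from 117 to 159 CPM (log2 fold change 0.45 ± 0.045 SE, edgeR adjusted p = 4.15e-05) and Acadvl (very long chain) from 118 to 163 CPM (log2 fold change 0.46 ± 0.058 SE, edgeR adjusted p = 0.000369), whereas Acadm (medium chain) stood at 242 ± 19.8 CPM with OA alone and 253 ± 10.3 CPM with BBR (log2 fold change 0.06, edgeR adjusted p = 0.611) and Acads (short chain) at 83.2 ± 5.67 CPM with OA alone and 89.8 ± 5.40 CPM with BBR (0.11, adjusted p = 0.36). Etfb and Etfdh, which carry their electrons to the respiratory chain, rose by 0.42 and 0.40 (edgeR adjusted p = 0.000794 and 0.000208). Mlycd, which removes the malonyl-CoA that inhibits Cpt1a, rose from 17.3 to 25.2 CPM (log2 fold change 0.54 ± 0.076 SE, edgeR adjusted p = 0.00085), and Slc22a5, the carnitine importer, from 10.995 to 16.7 CPM (log2 fold change 0.60 ± 0.096 SE, edgeR adjusted p = 0.00226). Between 13 (without BBR+OA replicate 3) and 15 genes of the list were called when a library was left out. None of 76 nuclear-encoded genes of the respiratory chain (median 0.04) and none of 13 mitochondrially encoded genes (median 0.11) was called. At an unadjusted p under 0.05, 7 of the 76 and 2 of the 13 passed, beside 2351 of all 12278 genes tested. Leaving out OA replicate 3 gave 3 called respiratory genes, and leaving out OA replicate 1 gave 1 called mitochondrial gene.

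**Figure D2:**
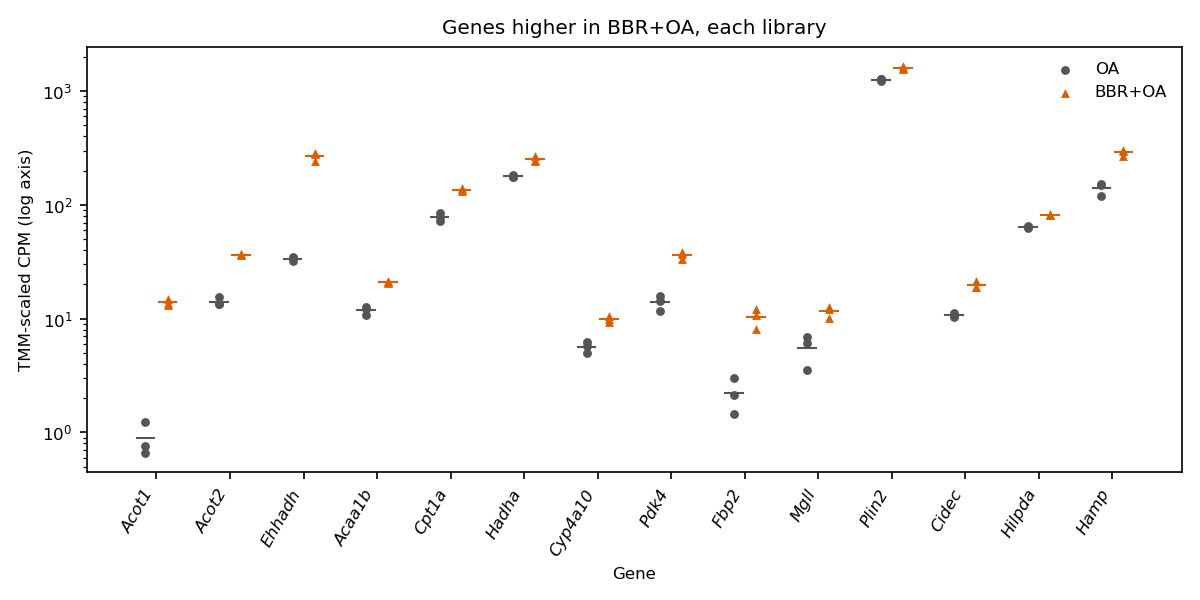
TMM-scaled CPM (log axis) of 14 genes called higher, with 1 symbol per library (grey circles OA, orange triangles BBR+OA) and a line at the mean of 3. The groups do not overlap for any of the 14 genes, which was a condition for those among the largest rises. Non-overlap was found in 23.9% of all genes tested. The gap is widest for Acot1 and Ehhadh.

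Acyl-CoA thioesterases, which release free fatty acid from CoA, included the largest rise of all named genes. Acot1, the cytosolic enzyme for long chains (chr12:84009490-84018371, plus strand), was at 1.24, 0.752 and 0.659 CPM with OA alone and 13.8, 15.02 and 13.2 CPM with BBR (log2 fold change 3.99 ± 0.18 SE, edgeR adjusted p = 8.19e-09), a 15.8-fold difference. Acot2, its mitochondrial relative, was at 15.4, 13.6 and 13.4 CPM with OA alone and 36.0, 36.8 and 37.1 CPM with BBR (log2 fold change 1.38 ± 0.072 SE, edgeR adjusted p = 4.24e-08). In OA-only cells Acot1 was thus at a low level, though above the limit given by 3 counts, and Acot2 was higher in both groups. The 2 sequences are very similar, so that part of the counts of one may derive from the other. Acot4 (peroxisomal) rose from 14.8 to 23.2 CPM (log2 fold change 0.65 ± 0.086 SE, edgeR adjusted p = 0.000505) and Acot12 (cytosolic, for acetyl-CoA) from 32.4 to 47.8 CPM (log2 fold change 0.56 ± 0.061 SE, edgeR adjusted p = 9.32e-05). In all, 4 of 13 tested thioesterases rose and none fell, and 4 or 5 were called whichever library was left out.

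Omega-oxidation attacks the far end of the chain in the endoplasmic reticulum. Cyp4a10, a fatty acid hydroxylase and classical PPAR alpha target, was at 5.74, 4.94 and 6.23 CPM with OA alone and 10.6, 9.42 and 9.91 CPM with BBR (log2 fold change 0.82 ± 0.12 SE, edgeR adjusted p = 0.0012), and Aldh3a2, the aldehyde dehydrogenase that follows, at 72.3, 70.1 and 71.2 CPM with OA alone and 89.0, 90.2 and 87.4 CPM with BBR (log2 fold change 0.32 ± 0.047 SE, edgeR adjusted p = 0.00127). They were the 2 called members of 11 tested. Cyp4a14, another classical target, was at a low level, 0.450, 0.859 and 0.710 CPM with OA alone and 1.004, 0.890 and 0.531 CPM with BBR, and was not called (log2 fold change 0.27 ± 0.36 SE). Reads of the Cyp4a genes, too, may be shared between copies.

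A transcription factor and a hormone linked to fasting were measured as well. Creb3l3, a liver transcription factor that acts on lipid genes and belongs here to the gluconeogenesis list, rose from 84.9 to 141 CPM (log2 fold change 0.74 ± 0.055 SE, edgeR adjusted p = 2.53e-06), and Fgf21, a hormone under PPAR alpha and Creb3l3, was at a low level, 1.07, 0.483 and 1.62 CPM with OA alone and 1.20, 0.576 and 1.42 CPM with BBR (log2 fold change -0.01 ± 0.41 SE).

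Fatty acid uptake, binding and activation was mixed, with 5 of 20 genes higher, 2 lower and a median of 0.13. Acsl1, the main long chain acyl-CoA synthetase of liver, was at 44.1, 41.0 and 46.3 CPM with OA alone and 65.6, 70.4 and 71.0 CPM with BBR (log2 fold change 0.66 ± 0.060 SE, edgeR adjusted p = 1.91e-05), and Slc27a4, a fatty acid transport protein, at 89.4, 88.4 and 88.5 CPM with OA alone and 105, 110.5 and 104 CPM with BBR (log2 fold change 0.26 ± 0.047 SE, edgeR adjusted p = 0.00547). Cd36, the scavenger receptor that takes up fatty acids, was at 3.27, 2.58 and 2.79 CPM with OA alone and 6.52, 4.24 and 4.37 CPM with BBR (log2 fold change 0.82 ± 0.20 SE, edgeR adjusted p = 0.0299). The groups did not overlap for any of the 3, as in 23.9% of all genes tested. The call of Cd36 was lost without OA replicate 2 or 3 (0.75 to 0.80) or without BBR+OA replicate 1 or 3 (0.58 to 0.91). Dbi, an acyl-CoA binding protein, rose from 248 to 289 CPM (log2 fold change 0.22 ± 0.051 SE, edgeR adjusted p = 0.0269), a call lost without OA replicate 1 or 2 (0.19) or without BBR+OA replicate 1, 2 or 3 (0.20 to 0.23). Slc27a1, the transport protein of muscle and fat, fell from 15.7 to 11.3 CPM (log2 fold change -0.48 ± 0.11 SE, edgeR adjusted p = 0.0232), a call lost without OA replicate 2 or 3 (-0.42 to -0.40) or without BBR+OA replicate 1, 2 or 3 (-0.51 to -0.46), and the second lower gene was Fabp5 (log2 fold change -0.18, edgeR adjusted p = 0.0472), a call lost without OA replicate 1, 2 or 3 (-0.20 to -0.15) or without BBR+OA replicate 1, 2 or 3 (-0.19 to -0.16), with upper quartile scaling and with DESeq2. The list had at most 1 lower call in any fit that left out a library. Fabp1, the main fatty acid binding protein of liver, stood at 32.2 ± 3.55 CPM with OA alone and 35.0 ± 6.27 CPM with BBR (log2 fold change 0.13, adjusted p = 0.585).

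Genes of the lipid droplet surface rose as well, 7 of 19 higher and 1 lower with a median of 0.16. Plin2, the coat protein of hepatocyte droplets and among the most abundant of these transcripts, was at 1278, 1278 and 1225 CPM with OA alone and 1656, 1605 and 1577 CPM with BBR (log2 fold change 0.36 ± 0.045 SE, edgeR adjusted p = 0.000404). Hilpda, a small inhibitor of droplet lipolysis, was at 62.3, 64.2 and 64.8 CPM with OA alone and 80.8, 82.0 and 83.6 CPM with BBR (log2 fold change 0.36 ± 0.048 SE, edgeR adjusted p = 0.000566). Cidec, which fuses droplets into larger ones, was at 11.1, 10.5 and 10.4 CPM with OA alone and 19.0, 21.5 and 18.8 CPM with BBR (log2 fold change 0.89 ± 0.087 SE, edgeR adjusted p = 3.27e-05). Of these 3, Cidec changed most as a ratio and Plin2 most in CPM. Its relative Cidea stood at 15.1 ± 1.58 CPM with OA alone and 15.6 ± 1.22 CPM with BBR (log2 fold change 0.04, edgeR adjusted p = 0.858) and was not called. Hsd17b11, a droplet-associated dehydrogenase, rose from 64.9 to 83.8 CPM (log2 fold change 0.37 ± 0.054 SE, edgeR adjusted p = 0.00126), and Plin5, which ties droplets to mitochondria, from 4.20 to 6.84 CPM (log2 fold change 0.70, adjusted p = 0.0335; call lost without OA replicate 1 or 2 (0.54 to 0.63) or without BBR+OA replicate 1, 2 or 3 (0.67 to 0.73)).

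Lipases rose alongside the coat proteins. Mgll, which cleaves the last acyl chain from glycerol, was at 6.14, 3.54 and 6.89 CPM with OA alone and 12.7, 10.2 and 12.2 CPM with BBR (log2 fold change 1.08 ± 0.18 SE, edgeR adjusted p = 0.00283), and Pnpla2, the lipase of the first step, rose from 56.9 to 71.1 CPM (log2 fold change 0.32, edgeR adjusted p = 0.00362). G0s2, an inhibitor of Pnpla2, was the 1 lower gene (7.90 to 5.66 CPM, -0.49, adjusted p = 0.0469), a call lost with DESeq2 and without OA replicate 1, 2 or 3 (-0.52 to -0.44) or without BBR+OA replicate 1, 2 or 3 (-0.59 to -0.39). Between 6 and 8 genes were called higher in those fits. Droplet proteins, an inhibitor of lipolysis and 2 lipases thus moved in the same direction.

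Triglyceride synthesis changed less, with 3 of 17 genes higher, none lower and a median of 0.04. Agpat3, an acyltransferase of the glycerolipid pathway, was at 177, 178 and 185 CPM with OA alone and 225, 217 and 227 CPM with BBR (log2 fold change 0.31 ± 0.045 SE, edgeR adjusted p = 0.00116), and Lpin2, the phosphatase that makes diacylglycerol, at 297, 319 and 289 CPM with OA alone and 350.4, 393 and 394 CPM with BBR (log2 fold change 0.33 ± 0.056 SE, edgeR adjusted p = 0.00395). Gpam, the mitochondrial acyltransferase of the first step, rose from 131 to 150.2 CPM (log2 fold change 0.19 ± 0.051 SE, edgeR adjusted p = 0.0469), a call lost without OA replicate 1, 2 or 3 (0.19 to 0.20) or without BBR+OA replicate 2 or 3 (0.16 to 0.17). Angptl4, a secreted inhibitor of lipoprotein lipase and PPAR target, was at 121, 112 and 110.1 CPM with OA alone and 162, 152 and 149.9 CPM with BBR (log2 fold change 0.44 ± 0.052 SE, edgeR adjusted p = 0.000204). Apoa5, an apolipoprotein that regulates plasma triglyceride, rose from 78.1 to 106 CPM (log2 fold change 0.43 ± 0.090 SE, edgeR adjusted p = 0.0142), a call lost without OA replicate 2 (0.44) or without BBR+OA replicate 2 or 3 (0.37 to 0.44). These were the 2 called genes of 22 for apolipoproteins and lipoprotein handling (9.09%, against 4.59% of all genes).

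Fatty acid synthesis showed no common direction, with 3 of 20 genes higher, 2 lower and a median of -0.01. Scd1, the desaturase that makes oleate, was at 1582, 1474 and 1436 CPM with OA alone and 1821, 1830 and 1902 CPM with BBR (log2 fold change 0.31 ± 0.049 SE, edgeR adjusted p = 0.00246). Mid1ip1, an activator of acetyl-CoA carboxylase, fell (96.4, 99.6 and 107 CPM with OA alone and 75.7, 76.9 and 80.3 CPM with BBR; log2 fold change -0.38 ± 0.053 SE, edgeR adjusted p = 0.000812). The other calls were each lost when 1 of several libraries was left out. Elovl2, which elongates polyunsaturated chains, rose by 0.40 (22.7 to 30.1 CPM) and lost its call without OA replicate 2 (0.37) or without BBR+OA replicate 3 (0.36). Acacb, the carboxylase of the mitochondrial surface, rose by 0.42 (41.8 to 56.1 CPM; lost without OA replicate 1 or 2 (0.34 to 0.43) or without BBR+OA replicate 2 or 3 (0.34 to 0.36)), and Elovl6, an elongase of the lipogenic program, had a log2 fold change of -0.24 (63.4 to 53.8 CPM; lost without OA replicate 1 or 3 (-0.23 to -0.20) or without BBR+OA replicate 2 or 3 (-0.23 to -0.20)). Srebf1, which encodes the lipogenic SREBP-1c, stood at 95.4 ± 4.64 CPM with OA alone and 104 ± 2.11 CPM with BBR (log2 fold change 0.12, edgeR adjusted p = 0.214).

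**Figure D3:**
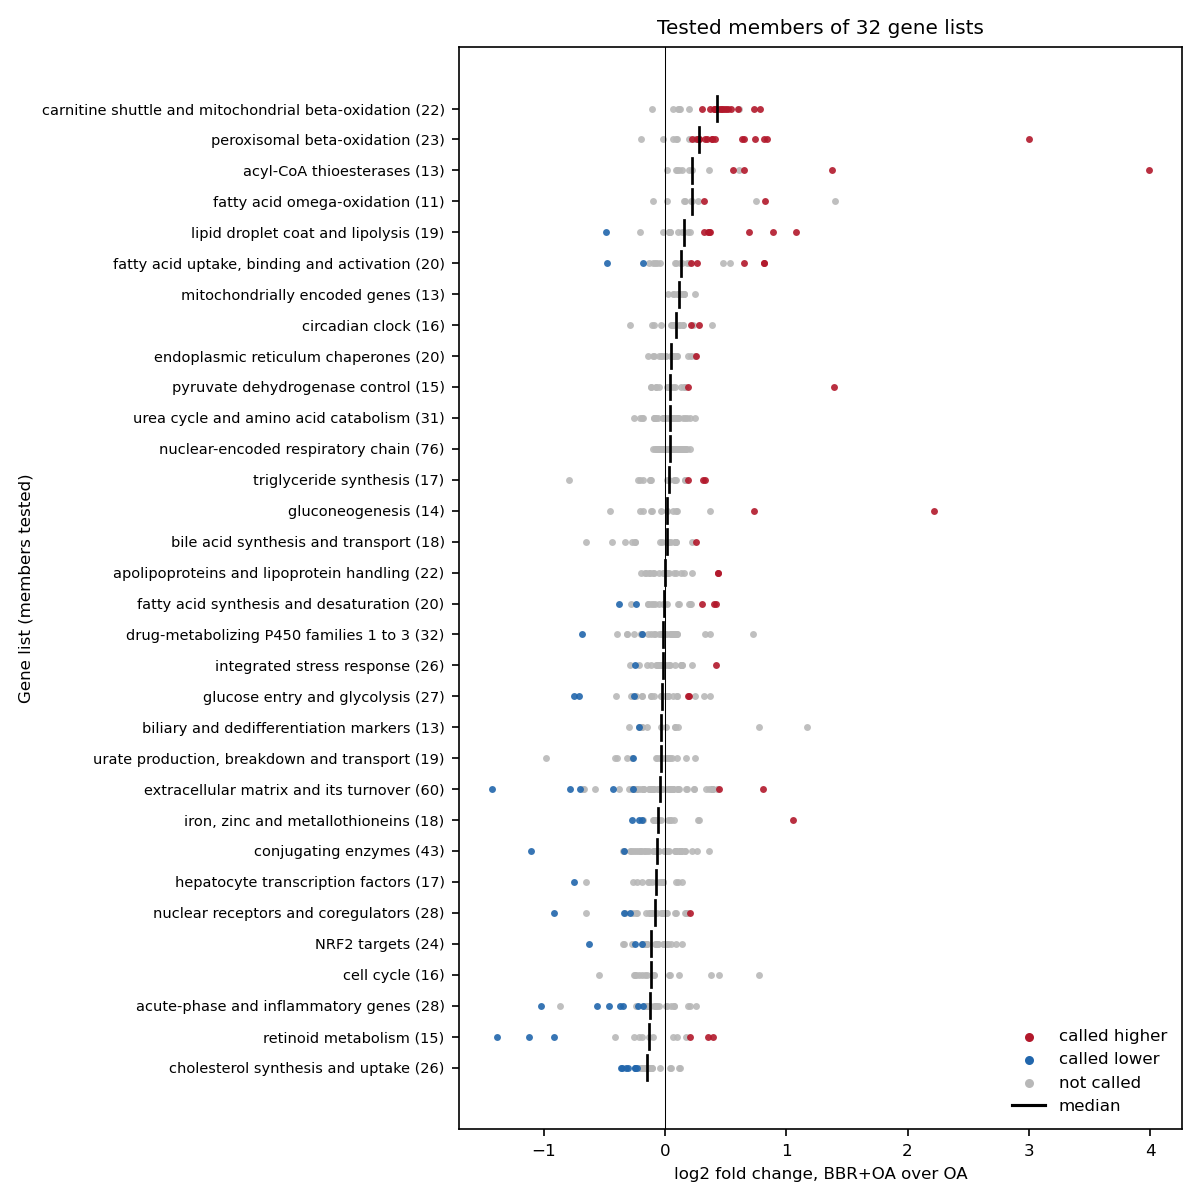
Each point is 1 tested gene of a pathway list, placed by its log2 fold change of BBR+OA over OA on the horizontal axis. Red and blue points were called higher and lower, grey points were not called, black bars are list medians, and the number tested is in brackets. The lists of mitochondrial and peroxisomal beta-oxidation lie furthest to the right (medians 0.43 and 0.28) and cholesterol synthesis furthest to the left (-0.15).

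The receptors themselves were measured at modest levels and none was called. In the FPKM of the authors, which are scaled by transcript length, Ppara averaged 3.02 ± 0.136 in OA and 2.67 ± 0.527 in BBR+OA (SD, n = 3), Pparg 4.07 ± 0.178 and 3.38 ± 0.553, Ppard 6.67 ± 0.492 and 6.25 ± 0.341, and Rxra 19.7 in both. By level per length in OA, Rxra was highest, followed by Ppard, Pparg and Ppara, and the 3 libraries of neighbours in this order did not overlap. In CPM, Pparg was at 7.88, 8.05 and 8.67 CPM with OA alone and 6.22, 7.27 and 6.08 CPM with BBR, and each BBR+OA library lay below each OA library, but the difference did not pass the test (log2 fold change -0.33 ± 0.12 SE, edgeR adjusted p = 0.136), and in FPKM the groups overlapped. Non-overlap of this kind was found in 2929 of the genes tested (23.9%). The log2 fold changes of Ppara, Ppard and Rxra were -0.11 ± 0.13, -0.10 ± 0.084 and -0.03 ± 0.063 SE.

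Glucose metabolism was marked by single genes more than by whole lists. Pdk4, the kinase that switches off pyruvate dehydrogenase and spares glucose when fat is oxidised, was at 14.2, 15.7 and 11.7 CPM with OA alone and 38.8, 36.8 and 33.3 CPM with BBR (log2 fold change 1.39 ± 0.096 SE, edgeR adjusted p = 1.31e-06). Pdk1, another of these kinases, rose from 123.1 to 140.3 CPM (log2 fold change 0.19 ± 0.051 SE, edgeR adjusted p = 0.048), a call lost without OA replicate 1, 2 or 3 (0.18 to 0.20) or without BBR+OA replicate 2 or 3 (0.16 to 0.17). Fbp2, a fructose-bisphosphatase best known from muscle (chr13:62836877-62858422), was at 1.46, 2.15 and 2.99 CPM with OA alone and 8.18, 12.2 and 10.7 CPM with BBR (log2 fold change 2.22 ± 0.21 SE, edgeR adjusted p = 2.48e-05). With Creb3l3, it was 1 of 2 called genes among 14 of gluconeogenesis (14.3%, against 4.59% of all genes).

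Entry of glucose and glycolysis had 2 of 27 genes higher and 3 lower, with a median of -0.02. Slc2a2, the glucose transporter of hepatocytes, was at 51.9, 41.6 and 77.3 CPM with OA alone and 29.7, 35.7 and 36.3 CPM with BBR (log2 fold change -0.75 ± 0.16 SE, edgeR adjusted p = 0.0178). Its OA libraries were spread widely, the call was lost without BBR+OA replicate 1, 2 or 3 (-0.80 to -0.66), and DESeq2 did not call it. Gckr, the regulatory protein of glucokinase, had a log2 fold change of -0.71 (8.80 to 5.35 CPM; lost without OA replicate 1 or 3 (-0.62 to -0.60) or without BBR+OA replicate 2 or 3 (-0.67 to -0.61)), and Pklr, the liver pyruvate kinase, one of -0.26 (728 to 609.9 CPM; lost without OA replicate 2 or 3 (-0.28 to -0.19) or without BBR+OA replicate 1, 2 or 3 (-0.30 to -0.19)). The phosphofructokinases Pfkp and Pfkl rose by 0.20 and 0.19. Their calls were lost without OA replicate 1 or 2 (0.20 to 0.22) or without BBR+OA replicate 2 or 3 (0.18 to 0.19) for Pfkp, and without OA replicate 1 or 2 (0.18 to 0.21) or without BBR+OA replicate 2 or 3 (0.16 to 0.18) for Pfkl. No gene of this list kept its call in all 6 of those fits.

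Cholesterol synthesis fell. Of 26 tested genes, 7 were lower and none higher, with a median of -0.15, against 2.63% of all genes lower. Hmgcs1, the cytosolic HMG-CoA synthase that opens the pathway, was at 462, 479 and 429.9 CPM with OA alone and 381, 358 and 355 CPM with BBR (log2 fold change -0.33 ± 0.052 SE, edgeR adjusted p = 0.00228). Idi1, the isomerase of isoprenoid units, was at 201, 203 and 199.7 CPM with OA alone and 163, 161 and 148 CPM with BBR (log2 fold change -0.35 ± 0.049 SE, edgeR adjusted p = 0.000792), and Fdft1, squalene synthase, at 154, 167 and 150.4 CPM with OA alone and 126, 129 and 126 CPM with BBR (log2 fold change -0.31 ± 0.050 SE, edgeR adjusted p = 0.00266). The groups did not overlap for any of the 3, as in 23.9% of all genes tested, and each was a small change next to the largest rises above. Mvd, the decarboxylase, had a log2 fold change of -0.37 (lost without BBR+OA replicate 2 (-0.33)), Msmo1, an oxidase of the sterol ring, one of -0.25 (lost without OA replicate 2 (-0.22) or without BBR+OA replicate 3 (-0.22)), and Cyp51, the demethylase, one of -0.24 (lost without OA replicate 2 (-0.20) or without BBR+OA replicate 1, 2 or 3 (-0.26 to -0.23)). Without replicate 2 of OA, or replicate 2 or 3 of BBR+OA, 4 genes of the list were called, and leaving out OA replicate 3 gave 12, all of them lower.

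To place promoter sequence beside these changes, RefSeq promoters (GRCm38.p6, from 250 bases before to 50 after the start) were found for 9294 of the 12278 tested genes, among them 181 of the 240 higher and 242 of the 323 lower genes. Both strands were searched for 4 patterns. The element bound by PPAR with RXR, AGGTCA repeated in the same direction after 1 spacer base, was present in 4 of all 9294 promoters (0.0430%) and in none of either called group. With both copies relaxed to AGGNCA, it was present in 35 (0.377%) of all promoters, in none of the 181 higher and in 3 (1.24%) of the 242 lower. The sterol regulatory element bound by SREBP, searched as TCACNCCAC with an A before it and C at the open position, was present in 6 promoters (0.0646%) and in none of either called group. Its relaxed form TCACNCCAC alone, which every strict match also holds, was present in 135 (1.45%) of all promoters, in 10 (5.52%) of the higher and in 3 (1.24%) of the lower. No test was made of these counts. The promoters of 3 named genes with this relaxed form are shown because they belong to the pathways above, with the match in capitals:
Hmgcs1 (chr13:119690190-119690246, plus strand): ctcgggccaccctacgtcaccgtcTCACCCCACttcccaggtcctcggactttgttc
Ehhadh (chr16:21787973-21788029, minus strand): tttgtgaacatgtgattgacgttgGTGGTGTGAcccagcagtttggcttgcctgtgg
Acsl1 (chr8:46490866-46490922, plus strand): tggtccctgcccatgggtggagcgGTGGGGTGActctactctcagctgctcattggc
The match begins 137 bases before the start in Hmgcs1, where it reads in the direction of the gene, 171 bases before it in Ehhadh and 76 bases before it in Acsl1, where it lies on the opposite strand. Hmgcs1 fell while Ehhadh and Acsl1 rose. A match describes letters only, and the absence of one says only that these letters were not in the window.

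Retinoid metabolism split into 3 higher and 3 lower genes of 15 tested. Cyp26a1, which degrades retinoic acid (chr19:37697798-37701536), was at 10.6, 10.2 and 11.1 CPM with OA alone and 2.91, 6.28 and 2.95 CPM with BBR (log2 fold change -1.39 ± 0.21 SE, edgeR adjusted p = 0.00153). Rarb, a retinoic acid receptor that is itself induced by retinoic acid, was at 6.47, 8.75 and 7.25 CPM with OA alone and 3.41, 4.66 and 3.84 CPM with BBR (log2 fold change -0.92 ± 0.16 SE, edgeR adjusted p = 0.00402), and Cyp26b1, the second degrading enzyme, was at 1.91 ± 0.165 CPM with OA alone and 0.863 ± 0.366 CPM with BBR (log2 fold change -1.12, edgeR adjusted p = 0.0445), a call lost with DESeq2 and without OA replicate 1, 2 or 3 (-1.19 to -1.08) or without BBR+OA replicate 1 or 3 (-1.06 to -0.89). The BBR+OA libraries of Cyp26a1 were spread, with replicate 2 the highest, and still all lay below OA, which was a condition for the 15 largest falls. Rara, a further receptor, had a log2 fold change of -0.29 (27.4 to 22.4 CPM) and lost its call without OA replicate 1 or 3 (-0.27 to -0.26) or without BBR+OA replicate 1, 2 or 3 (-0.29). The higher genes of the list were Aldh1a7, Retsat and Aldh1a1. Aldh1a7 was at 52.0, 49.0 and 54.3 CPM with OA alone and 62.7, 67.6 and 68.9 CPM with BBR (log2 fold change 0.36 ± 0.058 SE, edgeR adjusted p = 0.00283). Retsat was at 50.2, 45.6 and 43.0 CPM with OA alone and 66.8, 58.0 and 57.8 CPM with BBR (log2 fold change 0.40 ± 0.071 SE, edgeR adjusted p = 0.00537). Aldh1a1 had a log2 fold change of 0.20, a call lost without OA replicate 2 (0.17) or without BBR+OA replicate 1, 2 or 3 (0.16 to 0.23). Aldh1a1 and Aldh1a7 are close copies and may share reads. The list had 2 or 3 genes called in each direction in every fit that left out a library.

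Inflammatory and acute-phase genes were called in 1 direction. Of 28 tested, 7 were lower and none higher, with a median of -0.12, against 2.63% of all genes lower. Cxcl2, a chemokine that attracts neutrophils, was at 10.4, 8.27 and 7.55 CPM with OA alone and 4.07, 4.13 and 4.72 CPM with BBR (log2 fold change -1.02 ± 0.15 SE, edgeR adjusted p = 0.001). Serpina3n, an acute-phase protease inhibitor, was at 408, 369.5 and 383 CPM with OA alone and 309, 284 and 319 CPM with BBR (log2 fold change -0.35 ± 0.054 SE, edgeR adjusted p = 0.00211), and Apcs, serum amyloid P, at 89.4, 93.8 and 104 CPM with OA alone and 68.7, 79.2 and 74.0 CPM with BBR (log2 fold change -0.37 ± 0.065 SE, edgeR adjusted p = 0.00478). In none of these did the groups overlap, which held for 23.9% of all genes tested, and only Cxcl2 reached 2-fold. Cxcl1, a related chemokine, was at 48.8, 37.7 and 48.6 CPM with OA alone and 35.6, 26.1 and 29.6 CPM with BBR (log2 fold change -0.56 ± 0.11 SE, edgeR adjusted p = 0.00935), a call lost without BBR+OA replicate 2 or 3 (-0.54 to -0.46), and Fgb, the fibrinogen beta chain, at 1774, 1731 and 1847 CPM with OA alone and 1563, 1513 and 1512 CPM with BBR (log2 fold change -0.22 ± 0.046 SE, edgeR adjusted p = 0.0137), lost without BBR+OA replicate 2 or 3 (-0.21). Cd14, a receptor for bacterial lipopolysaccharide, and Socs3, a feedback inhibitor of cytokine signaling, had log2 fold changes of -0.18 (lost without OA replicate 1 or 2 (-0.19 to -0.18) or without BBR+OA replicate 1, 2 or 3 (-0.20 to -0.17)) and -0.46 (lost with DESeq2 and without OA replicate 1, 2 or 3 (-0.49 to -0.44) or without BBR+OA replicate 2 or 3 (-0.43 to -0.39)). Lif, a cytokine of the interleukin 6 family outside the list, was at 23.8, 22.3 and 20.3 CPM with OA alone and 14.8, 11.5 and 11.3 CPM with BBR (log2 fold change -0.81 ± 0.10 SE, edgeR adjusted p = 0.000404). Without BBR+OA replicate 2 or BBR+OA replicate 3, 3 genes of the list were called, all lower. Of markers that could move with this list, the summed Kupffer cell level overlapped between groups, and no tested Kupffer cell marker was called or had an unadjusted p under 0.05. Their median log2 fold change of 0.30 was 0.063 without BBR+OA replicate 1.

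Hamp, the iron hormone hepcidin that hepatocytes secrete (chr7:30942368-30944032), went against this direction. It was at 152, 121 and 149 CPM with OA alone and 306, 269 and 300.4 CPM with BBR (log2 fold change 1.05 ± 0.076 SE, edgeR adjusted p = 2.04e-06), and its copy Hamp2 was at 1.13 ± 0.187 CPM with OA alone and 1.14 ± 0.240 CPM with BBR (log2 fold change 0.02). It was the 1 higher gene of 18 for iron, zinc and metallothioneins. The 3 lower genes changed little. Slc39a14, an importer of zinc and iron, had -0.27 (lost without OA replicate 2 (-0.28) or without BBR+OA replicate 2 or 3 (-0.25 to -0.24)), Slc39a4, a zinc importer, -0.22 (lost without OA replicate 2 (-0.20) or without BBR+OA replicate 1, 2 or 3 (-0.23 to -0.19)), and Mt2, a metallothionein, -0.19 (lost without OA replicate 2 (-0.19) or without BBR+OA replicate 1, 2 or 3 (-0.19 to -0.18)).

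Among the largest falls were genes of adhesion, of the matrix and of growth factor binding. Others belonged to the retinoid and inflammatory lists above or to no list. Cdh17, a cadherin of intestine and bile duct epithelium (chr4:11758147-11817895), was at 5.74, 6.93 and 6.18 CPM with OA alone and 1.71, 2.30 and 2.30 CPM with BBR (log2 fold change -1.58 ± 0.17 SE, edgeR adjusted p = 8.57e-05). Mmp13, a collagenase (chr9:7272514-7283331), was at 5.80, 4.29 and 5.12 CPM with OA alone and 1.86, 1.36 and 2.48 CPM with BBR (log2 fold change -1.43 ± 0.21 SE, edgeR adjusted p = 0.00131). Igfbp4, a binding protein of insulin-like growth factors that hepatocytes secrete, was at 137, 134 and 139 CPM with OA alone and 72.5, 73.0 and 74.4 CPM with BBR (log2 fold change -0.90 ± 0.046 SE, edgeR adjusted p = 4.24e-08). The fall of Igfbp4 was smaller as a ratio but rested on far more counts, and its libraries differed little within a group. Cholangiocyte markers, whose summed level was lower in every BBR+OA library, are given above. That sum is mostly Spp1. The 4 tested markers had log2 fold changes from -0.30 to 0.77 with a median of -0.053, and none was called. Their part in the fall of Cdh17 was not tested.

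Of 60 tested genes of the extracellular matrix and its turnover, 2 were higher and 5 lower, with a median of -0.04. The called share was 11.7%, against 4.59% of all genes. Col15a1, a collagen of basement membranes, was at 8.56, 9.77 and 9.38 CPM with OA alone and 5.32, 6.02 and 4.72 CPM with BBR (log2 fold change -0.78 ± 0.12 SE, edgeR adjusted p = 0.00224). Itga2 and Itga5, integrin subunits that bind collagen and fibronectin, had log2 fold changes of -0.70 and -0.26. Their calls were lost without OA replicate 2 (-0.56) or without BBR+OA replicate 3 (-0.58) and with DESeq2 for Itga2 and without OA replicate 2 (-0.24) or without BBR+OA replicate 1 (-0.22) for Itga5. The fifth lower gene was Mmp24 (-0.43, lost without OA replicate 1 or 2 (-0.44 to -0.33) or without BBR+OA replicate 1, 2 or 3 (-0.51 to -0.35)). Mmp15, a membrane-bound metalloproteinase, and Itgb6, an integrin of epithelia, were higher, by 0.44 (lost without OA replicate 2 (0.38) or without BBR+OA replicate 2 or 3 (0.41)) and 0.81 (lost without OA replicate 1, 2 or 3 (0.77 to 0.86) or without BBR+OA replicate 1 or 3 (0.67 to 0.77)).

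**Figure D4:**
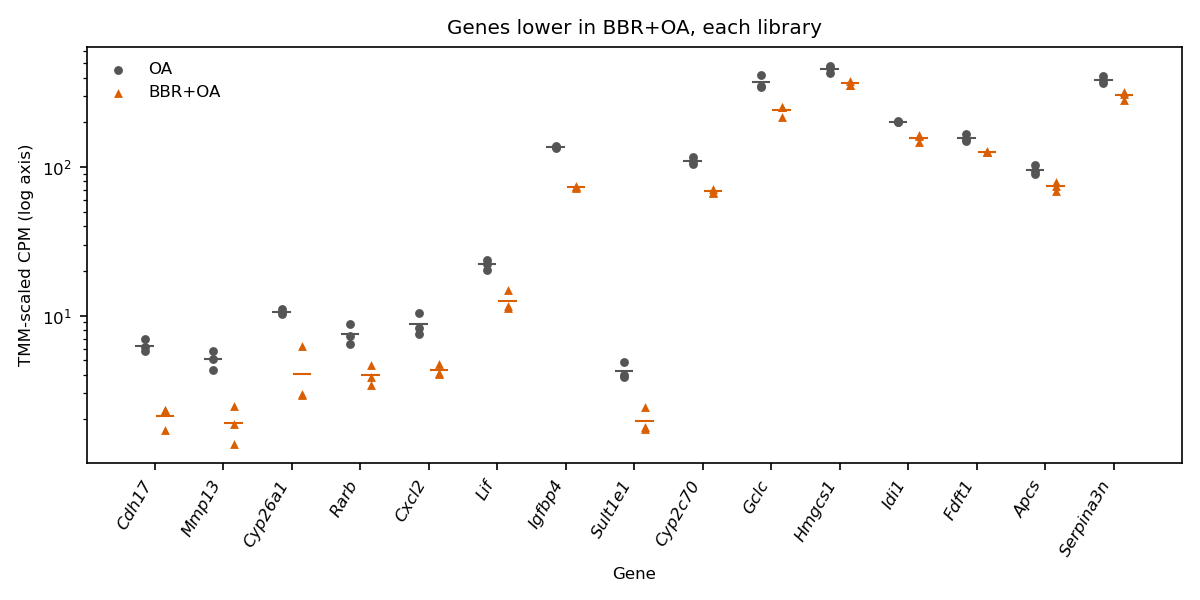
TMM-scaled CPM (log axis) of 15 genes called lower, with 1 symbol per library (grey circles OA, orange triangles BBR+OA) and a line at the mean of 3. The groups do not overlap for any of them, which was a condition for those among the 15 largest falls. The gap is widest for Cdh17, Mmp13 and Cyp26a1, and narrow for Hmgcs1, Idi1, Fdft1, Apcs and Serpina3n.

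Further large falls had no list. Lmcd1, a LIM domain cofactor, was at 16.7, 25.5 and 20.02 CPM with OA alone and 8.93, 9.84 and 11.03 CPM with BBR (log2 fold change -1.07 ± 0.14 SE, edgeR adjusted p = 0.000404), Fjx1, a secreted kinase-like protein, at 8.78, 7.73 and 7.65 CPM with OA alone and 4.02, 3.61 and 4.78 CPM with BBR (log2 fold change -0.97 ± 0.14 SE, edgeR adjusted p = 0.000977), and Pak6, a p21-activated kinase, at 11.9, 8.11 and 9.99 CPM with OA alone and 5.97, 5.39 and 5.13 CPM with BBR (log2 fold change -0.86 ± 0.14 SE, edgeR adjusted p = 0.00354). Tcf7l2, a transcription factor of Wnt signaling, was at 7.77, 7.19 and 7.25 CPM with OA alone and 4.32, 4.50 and 4.37 CPM with BBR (log2 fold change -0.75 ± 0.12 SE, edgeR adjusted p = 0.00283) and was the 1 called gene of 17 hepatocyte transcription factors. Its 3 libraries in each group lay close together. The called share of this list of factors, 5.88%, was near the 4.59% of all genes. Hnf4a and Onecut2 of that list stood at 139 ± 6.22 CPM with OA alone and 136 ± 4.30 CPM with BBR, and at 139 ± 12.3 CPM with OA alone and 126 ± 7.99 CPM with BBR, and were not called. Htr2b, a serotonin receptor, had a log2 fold change of -0.84 and lost its call without OA replicate 2 (-0.69) or without BBR+OA replicate 3 (-0.87). Irx3, a homeobox factor, had -0.57 and lost it without OA replicate 2 (-0.40) or without BBR+OA replicate 1, 2 or 3 (-0.61 to -0.54). Nat8f4, an acetyltransferase-like gene, was at 65.3, 87.5 and 72.0 CPM with OA alone and 43.1, 53.7 and 49.7 CPM with BBR (log2 fold change -0.62 ± 0.096 SE, edgeR adjusted p = 0.002). Of 3 assembled loci without a gene identifier, XLOC_019591 fell most (17.1, 19.4 and 18.8 CPM with OA alone and 5.62, 8.53 and 8.14 CPM with BBR; log2 fold change -1.32 ± 0.13 SE, edgeR adjusted p = 2.59e-05). XLOC_006405 had -0.84 (lost without OA replicate 2 (-0.73)) and XLOC_000778 -0.77 (lost without OA replicate 1 or 2 (-0.74 to -0.70) or without BBR+OA replicate 1 or 3 (-0.79 to -0.56)).

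Among the largest rises, several more genes belonged to no list. Impa2, an inositol monophosphatase, was at 7.38, 8.05 and 9.88 CPM with OA alone and 16.3, 16.5 and 15.4 CPM with BBR (log2 fold change 0.93 ± 0.11 SE, edgeR adjusted p = 0.000176), Plat, tissue plasminogen activator, at 7.32, 10.5 and 9.12 CPM with OA alone and 16.6, 18.2 and 14.9 CPM with BBR (log2 fold change 0.88 ± 0.12 SE, edgeR adjusted p = 0.000731), and Slc25a34, a mitochondrial carrier, at 2.82, 3.06 and 3.45 CPM with OA alone and 5.07, 7.33 and 5.96 CPM with BBR (log2 fold change 0.97 ± 0.17 SE, edgeR adjusted p = 0.0048). For each of the 3, the highest OA library was below the lowest BBR+OA library, which the rule for the largest rises required. Gm13889 rose by 0.93 (4.69 to 9.05 CPM) and the assembled locus XLOC_010076 by 1.31 (2.66 to 6.62 CPM).

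Drug metabolism changed little. Of 32 tested P450 genes of families 1 to 3, 2 were lower and none higher, and of 43 conjugating enzymes, 2 were lower and none higher. These shares, 6.25 and 4.65%, were near the 4.59% of all genes. Cyp2c70, which makes muricholic acids in mouse liver, was at 118, 109 and 104 CPM with OA alone and 67.1, 70.7 and 67.7 CPM with BBR (log2 fold change -0.69 ± 0.055 SE, edgeR adjusted p = 5.29e-06). Sult1e1, the estrogen sulfotransferase, was at 3.88, 3.97 and 4.87 CPM with OA alone and 2.41, 1.78 and 1.71 CPM with BBR (log2 fold change -1.10 ± 0.19 SE, edgeR adjusted p = 0.00495). For both, the groups did not overlap, as in 23.9% of all genes tested, and Cyp2c70 was at a much higher level. Cyp3a13 had a log2 fold change of -0.19 (lost without OA replicate 1 or 2 (-0.20 to -0.18) or without BBR+OA replicate 1, 2 or 3 (-0.21 to -0.16)) and Sult1d1 of -0.34 (lost without OA replicate 2 (-0.31) or without BBR+OA replicate 3 (-0.32)). Cyp2c29, Cyp2b10 and Cyp3a11, whose families contain near-identical copies, were not called, with log2 fold changes of 0.05 ± 0.10, -0.14 ± 0.13 and 0.07 ± 0.059 SE.

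Among stress pathways, 3 of 24 targets of NRF2, the regulator of antioxidant genes, were lower (12.5%, against 2.63% of all genes) and none higher, with a median of -0.12. Gclc, the catalytic subunit of the rate-limiting enzyme of glutathione synthesis, was at 344, 353 and 418 CPM with OA alone and 216, 253 and 253 CPM with BBR (log2 fold change -0.63 ± 0.075 SE, edgeR adjusted p = 0.000234). Gsr, glutathione reductase, had a log2 fold change of -0.19 (lost without OA replicate 2 (-0.19) or without BBR+OA replicate 2 or 3 (-0.18 to -0.17)), and Slc7a11, the cystine importer, one of -0.25 (lost without OA replicate 2 (-0.21) or without BBR+OA replicate 1 or 3 (-0.27 to -0.19)). Gclc had the largest difference of the list, and when a library was left out, between 1 (without replicate 2 of OA or replicate 3 of BBR+OA) and 6 (without replicate 1 of OA) of its genes were called, all lower. Atf3, a transcription factor of the integrated stress response, rose (52.1, 60.1 and 49.2 CPM with OA alone and 70.3, 75.5 and 70.1 CPM with BBR; log2 fold change 0.42 ± 0.069 SE, edgeR adjusted p = 0.00283), while Slc7a11 was the 1 lower gene of 26 there. The called share of that list, 7.69%, stood against 4.59% of all genes. Herpud1, a factor of protein degradation, was the 1 called gene of 20 for endoplasmic reticulum chaperones and their partners (0.26, lost without OA replicate 2 (0.25) or without BBR+OA replicate 1 or 2 (0.22 to 0.27)). That share, 5%, was near the 4.59% of all genes. Hspa5 and Calr stood at 1027 ± 44.0 CPM with OA alone and 1083 ± 34.3 CPM with BBR, and at 552 ± 14.6 CPM with OA alone and 581 ± 26.0 CPM with BBR.

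Genes of urate handling, the process that the drug acts on in patients as an inhibitor of the transporter URAT1, were mostly not called. Of 19 tested, 1 was lower and none higher, a called share of 5.26%, near the 4.59% of all genes. Ampd2, an AMP deaminase, was at 49.997, 47.3 and 49.8 CPM with OA alone and 40.8, 39.2 and 42.2 CPM with BBR (log2 fold change -0.27 ± 0.057 SE, edgeR adjusted p = 0.0157), a call lost without BBR+OA replicate 2 (-0.24). Uox, urate oxidase, which mice have and humans lack, stood at 178 ± 11.2 CPM with OA alone and 180.1 ± 17.2 CPM with BBR (log2 fold change 0.01), and Pnp, which feeds the pathway, at 156 ± 3.24 CPM with OA alone and 153 ± 0.873 CPM with BBR (-0.02). In bile acid synthesis and transport, 1 of 18 genes was higher: Abcb4, the phospholipid exporter of the bile canaliculus (97.0 to 116 CPM, log2 fold change 0.26 ± 0.060 SE, edgeR adjusted p = 0.027), whose call was lost without OA replicate 2 (0.19) or without BBR+OA replicate 1, 2 or 3 (0.24 to 0.28). The called share of the bile acid list, 5.56%, was also near that of all genes. Abcc2 and Abcc3, exporters of conjugates, stood at 169.9 ± 10.7 CPM with OA alone and 167 ± 17.5 CPM with BBR, and at 426 ± 17.5 CPM with OA alone and 441 ± 12.4 CPM with BBR. Of nuclear receptors and coregulators, 1 of 28 was higher (Rora, 0.20, lost without OA replicate 2 or 3 (0.19) or without BBR+OA replicate 1, 2 or 3 (0.19 to 0.21)) and 3 lower: Rarb and Rara, above, and Thrb, a thyroid hormone receptor (-0.34, lost without OA replicate 1 or 2 (-0.33) or without BBR+OA replicate 2 or 3 (-0.32 to -0.31)).

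No gene was called among 31 of the urea cycle and amino acid catabolism (median 0.04) or among 16 of the cell cycle (median -0.12). At an unadjusted p under 0.05, 5 and 5 of them passed, beside 2351 of all 12278 genes tested, and DESeq2 called 1 and 1. The 2 most abundant of the first list, Ahcy and Gpt2, stood at 724 ± 10.7 CPM with OA alone and 777 ± 27.3 CPM with BBR, and at 214 ± 11.5 CPM with OA alone and 221 ± 9.19 CPM with BBR, and those of the second, Cdkn1a and Myc, at 324 ± 11.6 CPM with OA alone and 289 ± 8.54 CPM with BBR (edgeR adjusted p = 0.0602), and at 163 ± 3.86 CPM with OA alone and 147 ± 0.837 CPM with BBR (adjusted p = 0.0749). Without OA replicate 3, 1 gene of the first and 3 of the second, Myc among them, were called lower, and Cdkn1a was called lower by DESeq2. Cdkn1a was also called lower without the count filter. With the replicate number as a block or with all 12 libraries in 1 fit, both Cdkn1a and Myc were called lower. The cell cycle list had 3 lower calls without the filter and 4 with the block. Among 16 clock genes, Nfil3 and Per1 were higher by 0.21 and 0.28. These calls were lost without OA replicate 1 or 2 (0.21) or without BBR+OA replicate 1 or 3 (0.20) for Nfil3 and without OA replicate 2 or 3 (0.21 to 0.26) or without BBR+OA replicate 1, 2 or 3 (0.27 to 0.29) for Per1. Of 13 biliary and dedifferentiation markers, Vim, an intermediate filament of mesenchymal cells, was the 1 called gene (601 to 517 CPM, -0.22), lost without OA replicate 2 (-0.18) or without BBR+OA replicate 1, 2 or 3 (-0.24 to -0.19), while Anxa2 and Cldn4 were not called at 1894 ± 11.7 CPM with OA alone and 1907 ± 40.5 CPM with BBR, and at 755 ± 88.7 CPM with OA alone and 660.0 ± 77.0 CPM with BBR.

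Whether BBR acted differently with OA than without was tested as the interaction of both on all 12 libraries, a comparison of the difference BBR+OA minus OA with the difference BBR minus control. The pairs share no library. The interaction was called for 1551 of 12742 genes (12.2%), with a positive term, a more positive effect of BBR with OA, for 875 (6.87%) and a negative term for 676 (5.31%). The count was 1027 without OA replicate 2 and 1028 without BBR replicate 2. The excess of positive terms depended on scaling and on single libraries. Positive and negative terms numbered 782 and 761 with RLE scaling and 720 and 713 with DESeq2. Leaving out OA replicate 2 gave 503 and 524, and leaving out BBR+OA replicates 1, 2 and 3 in turn gave 593 and 618, 640 and 663, and 546 and 595. Without OA, BBR altered 3484 of 12555 genes (27.7%). Of the 240 genes that rose with OA, 113 also rose without it, 27 fell and 100 were not called, and the interaction was called for 104, positive in 92. Of the 323 that fell with OA, 322 were tested without it. Of these, 152 also fell, 46 rose and 124 were not called, and the interaction was called for 127, negative in 103. These genes were chosen by their effect with OA, which is part of the interaction term. That choice in itself favours positive terms among risers and negative terms among fallers.

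The strongest risers did so in both settings. Without OA, the log2 fold change was 3.13 for Ehhadh, 3.53 for Acot1, 1.40 for Acot2 and 1.55 for Fbp2, and the interaction terms of -0.11, 0.47, -0.02 and 0.68 were not called (edgeR adjusted p = 0.615, 0.488, 0.951 and 0.147). Other genes differed. Pdk4 rose by 3.52 without OA and by 1.39 with it (interaction -2.12, edgeR adjusted p = 2.46e-08), and Hilpda by 1.70 and 0.36 (interaction -1.33, adjusted p = 1.11e-07). Thus BBR raised Pdk4 and Hilpda less in the presence of OA.

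Several genes changed direction. Hamp fell by 0.36 on the log2 scale without OA and rose by 1.05 with it (interaction 1.42, edgeR adjusted p = 5.69e-06), and Mgll fell by 0.79 and rose by 1.08 (interaction 1.88, adjusted p = 0.000161). Elovl2 and Aldh1a1 had log2 fold changes of -0.81 and -0.85 without OA against 0.40 and 0.20 with it. Nat8f4, Htr2b and Irx3 rose without OA, by 0.85, 0.88 and 1.01, and fell with it, with interaction terms of -1.46, -1.71 and -1.57. In 18 of the 26 cholesterol genes the interaction was called, and the median log2 fold change of the list was 0.18 without OA and -0.15 with it. Hmgcs1 stood at 0.12 without OA (edgeR adjusted p = 0.132). The mitochondrial beta-oxidation list had 7 called interactions of 22 and medians of 0.16 and 0.43. For peroxisomal beta-oxidation, 12 of 23 interactions were called, and the medians were 0.033 without OA and 0.28 with it. These counts hold terms of either sign and stand beside 12.2% of all genes with a called interaction.

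**Figure D5:**
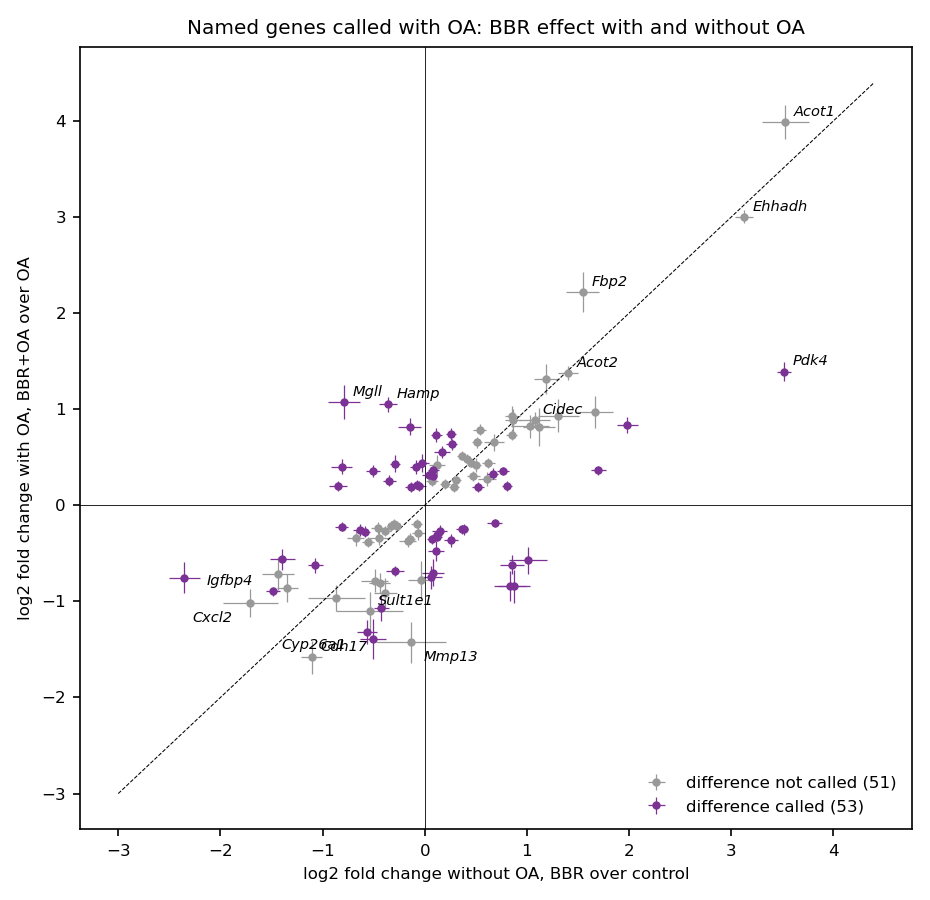
Each point is 1 of 104 named genes called with OA, with its log2 fold change without OA (BBR over control, horizontal) and with OA (BBR+OA over OA, vertical), and bars of 1 SE. The dashed line marks equal effects, purple points (53) had a called interaction and grey points (51) had not. Acot1, Ehhadh and Acot2 lie near the line, Pdk4 lies below it, and Mgll and Hamp lie above it.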

How the data were processed

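RNA from cultured hepatocytes was enriched for polyadenylated transcripts, reverse transcribed from random primers and read on an Illumina HiSeq machine, per the labels. For each library the authors deposited a table of 22471 features (21911 Ensembl genes and 560 assembled loci) with estimated counts and FPKM, on the genome build mm10 per the submitters' processing notes. The aligner, the counting program and the use of strand are not given in the sources used here, so reads of antisense neighbours and near-identical copies cannot be told apart. The deposited estimated counts, fractional for 2862 features, were rounded. The FPKM values that the authors made were used for the levels of 4 receptor genes and were not tested.

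Features were filtered with filterByExpr (minimum count 10), scaled by TMM and tested with the two-sided quasi-likelihood F test of edgeR 4.0.16 (R 4.3.3), with Benjamini-Hochberg adjustment over all features and a threshold of 0.05. The main fit used the 6 OA and BBR+OA libraries, and the interaction all 12. SE values were derived from the F statistic. Replicates differed beyond counting noise and were kept as separate samples. Gene coordinates come from GENCODE M21 (GRCm38). The fitting step was tested on simulated counts. Alternatives were RLE and upper quartile scaling, DESeq2 1.42.0, no count filter, a replicate block, all 12 libraries in 1 fit, 2-fold thresholds and leaving out each library.

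Named genes were the 15 largest rises and 15 largest falls among called genes with at least 5 CPM and no overlap between groups, up to 5 called members of each list (the 2 most abundant where fewer than 2 were called), a fixed set of lipid and drug genes, and the 5 largest interaction terms of each sign. A few genes that the rule names, and one short list, are not reported here. The libraries, lists and rule were chosen with earlier results of these data known. Acaa1a, Abcd3, Pex11a, Decr2, Hsd17b4, Crat, Nudt7, Scp2, Cpt2, Slc25a20, Acadvl, Acadm, Acads, Etfb, Etfdh, Mlycd, Slc22a5, Fabp1, Fabp5, Plin5, Pnpla2, G0s2, Cyp51, Cyp26b1, Cd14, Socs3, Hamp2, Mmp24, Itgb6 and Gm20388 lie outside the rule and were chosen after their values were seen.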

Additional observations from a re-analysis of the deposited data

Results flagged for a closer look

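The results in this part were singled out because the effect of BBR with OA differed from its effect without OA, by the edgeR test of the interaction on all 12 libraries with an adjusted p under 0.05. This held for 63 of the named genes. Values are interaction terms on the log2 scale, the effect with OA minus the effect without it. Across all genes, 12.2% had such a difference. The named genes cannot be set against that share, since some were named for the size of their interaction term. Others were named for their effect with OA, which is part of the term. That choice in itself favours positive terms among risers and negative terms among fallers.

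Among genes that rose with OA, 20 had a positive term, the rise being more positive than without OA. Besides Mgll (1.88), Hamp (1.42) and Elovl2 (1.23), they were Aldh1a1 (1.06), Aldh1a7 (0.87) and Retsat (0.49) of the retinoid list, the fatty acid oxidation genes Slc27a2 (0.98), Decr1 (0.63), Ech1 (0.49), Acot12 (0.40), Eci2 (0.38) and Aldh3a2 (0.29), and Apoa5 (0.74), Abcb4 (0.61), Mmp15 (0.47), Gpam (0.34), Nfil3 (0.30), Hsd17b11 (0.30), Rora (0.27) and Agpat3 (0.24). The term was negative for 7 risers: Pdk4 (-2.12), Hilpda (-1.33), Acaa1b (-1.13), Pfkp (-0.59), Plin2 (-0.40), Lpin2 (-0.33) and Pdk1 (-0.32).

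Among genes that fell with OA, 19 had a negative term. These were Htr2b (-1.71), XLOC_006405 (-1.66), Irx3 (-1.57), Nat8f4 (-1.46), Cyp26a1 (-0.87), Mt2 (-0.86), Tcf7l2 (-0.80), Itga2 (-0.78), XLOC_019591 (-0.74), Lmcd1 (-0.63), Slc7a11 (-0.62), Slc27a1 (-0.58), Itga5 (-0.40) and Cyp2c70 (-0.38), and the cholesterol genes Mvd (-0.61), Msmo1 (-0.61), Hmgcs1 (-0.43), Fdft1 (-0.42) and Idi1 (-0.42). The term was positive for 7 fallers: Slc2a2 (1.61), Cxcl1 (0.84), Fgb (0.60), Igfbp4 (0.60), Gclc (0.46), Pklr (0.39) and Slc39a14 (0.32).

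A further 10 named genes were not called with OA and still differed from the setting without it. Gpt2 (1.02), Rxra (0.29), Hnf4a (0.24) and Myc (0.22) had positive terms, and Cldn4 (-0.77), Onecut2 (-0.67), Cdkn1a (-0.44), Anxa2 (-0.33), mt-Co1 (-0.24) and Srebf1 (-0.23) negative ones.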

How the results depend on the processing

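The 563 calls of BBR+OA against OA became 566 with RLE scaling, 569 with upper quartile scaling, 513 with DESeq2, 844 without the count filter and 753 with all 12 libraries in 1 fit. Leaving out 1 library gave 216 to 632. With a 2-fold change as well, 31 genes passed, and 73 at an unadjusted p under 0.05. The interaction count of 1551 was 1027 to 1679 with 1 library left out. All 104 named genes that were called kept their direction under every alternative, and kept the call under RLE and upper quartile scaling and without the filter, with 3 calls lost under DESeq2 (Slc2a2, Thrb and Itga2), 5 in the fit of all 12 libraries (Gpam, Pdk1, Pklr, Aldh1a1 and Mt2) and 10 to 37 when a library was left out. Genes with log2 fold changes near 0, none of them called, changed sign when a library was left out: Abcc2 (-0.11 to 0.042), Anxa2 (-2.01e-05 to 0.0304), Uox (-0.037 to 0.0903), Hnf4a (-0.062 to 0.0012), Rxra (-0.067 to 0.034), Cidea (-0.027 to 0.13), Fgf21 (-0.36 to 0.46), Cyp2c29 (-0.10 to 0.17) and Cyp2b10 (-0.23 to 0.026). The causes were not tested.

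With the replicate number as a block, 1333 genes were called (578 higher, 755 lower), all 563 among them, and 2265 interactions, and Fgf21 stood at 0.026. The main fit did not pair the samples by number, since no source used here states a pairing. Deviations of same-numbered libraries correlated at 0.195, 0.0366 and 0.0757. Those of differently numbered libraries ran from -0.160 to 0.0889, and all were negative except OA replicate 3 with BBR+OA replicate 2 (0.0889). Whether the samples were paired is not known. A depth of 16917054 to 19926541 counts limits what can be said of genes near 0.177 CPM, the level of 3 counts in the shallowest library.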
